A study of Homo sapiens with 4 samples.

Results

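The DEAD and DEAH box RNA helicases were taken as every row of the gene table whose symbol starts with DDX or DHX followed by a number and at most 1 letter, without the antiviral sensors DDX58 and DHX58 and without DDX21. The rule found 49 of the 13743 genes, 34 of them DDX and 15 DHX genes, and it used no measured value. Of these, 48 are protein-coding genes and DDX12P is annotated as an unprocessed pseudogene. Expression was measured by cap analysis of gene expression (CAGE), which counts the 5′ ends of capped transcripts, in the cell line UM-UC-3, which derives from a human urothelial carcinoma. A subline with induced cisplatin resistance, grown in medium with 10% serum and 5 µM cisplatin (CDDP), gave 2 samples, and its wild type parent line gave 2 samples. The labels name no other allele or agent and do not say whether the subline is a clone. How the wild type line was grown is not stated in these sources, so acquired resistance and the drug in the medium cannot be told apart. The labels do not call the replicates separate cultures, so each p-value reflects the spread among these samples alone and that spread may be technical.

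DEAD and DEAH box proteins bind RNA through a shared helicase core and use ATP to unwind short duplexes, to strip proteins from RNA or to clamp onto it. They are named after a short stretch of amino acids in the ATP-binding core. Different members act at nearly every step in the life of an RNA, from transcription and splicing through ribosome assembly and export to translation and decay, and most are needed in every dividing cell. A few are restricted to the germ line or are induced by interferon.

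The helicase genes differed between the groups about as often as other genes did. Of the 49 members, 18 were higher and 7 lower in resistant cells and 24 did not pass the test (limma, adjusted p below 0.05), so 51.0% were called where 55.2% of all 12587 tested genes were called. The direction had the same lean as in the whole table, with 36.7% of members higher against 33.5% of all genes and 14.3% of members lower against 21.6% of all genes. The changes were small: the median log2 fold change was 0.13 over the members and 0.09 over all tested genes, and the median absolute log2 fold change was 0.24 and 0.32. Calls with a log2 fold change of 1 or more in size numbered 2 members, or 4.08%, against 7.72% of all genes. The groups did not overlap in 36 members, or 73.5%, against 78.5% of all genes. Summed over the members, the expression level was 2988 and 2977 CPM (reads scaled to a common total per sample) in resistant samples and 2910 and 2787 CPM in wild type samples. In CPM the total of these 49 genes thus lay slightly higher in both resistant samples, and it was not summed under other scalings. It is not a total of all DEAD box helicases, since those under other names are not members. Of these, EIF4A1 alone read 1333 and 1222 CPM in resistant and 1075 and 1013 CPM in wild type samples, more than any member.

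The lean toward higher values depends on how the samples are scaled. With median-ratio scaling 13 members were higher and 10 lower, and over all genes the split was 3486 to 3484 in place of 4221 to 2724. With quantile normalization 13 members were higher and 12 lower, and over all genes 3518 and 3415. Leaving out 1 resistant sample also lowered the number of calls, to 10 higher and 6 lower without resistant replicate 1 and to 11 and 6 without resistant replicate 2. Over all tested genes these fits called 35.7% without resistant replicate 1 and 35.3% without resistant replicate 2, against 32.7% and 34.7% of the members. Each call of a helicase gene or partner given below held in all 13 alternatives unless the text says otherwise, and calls of genes that overlap a helicase gene were not tried under them.

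**Figure D1:**
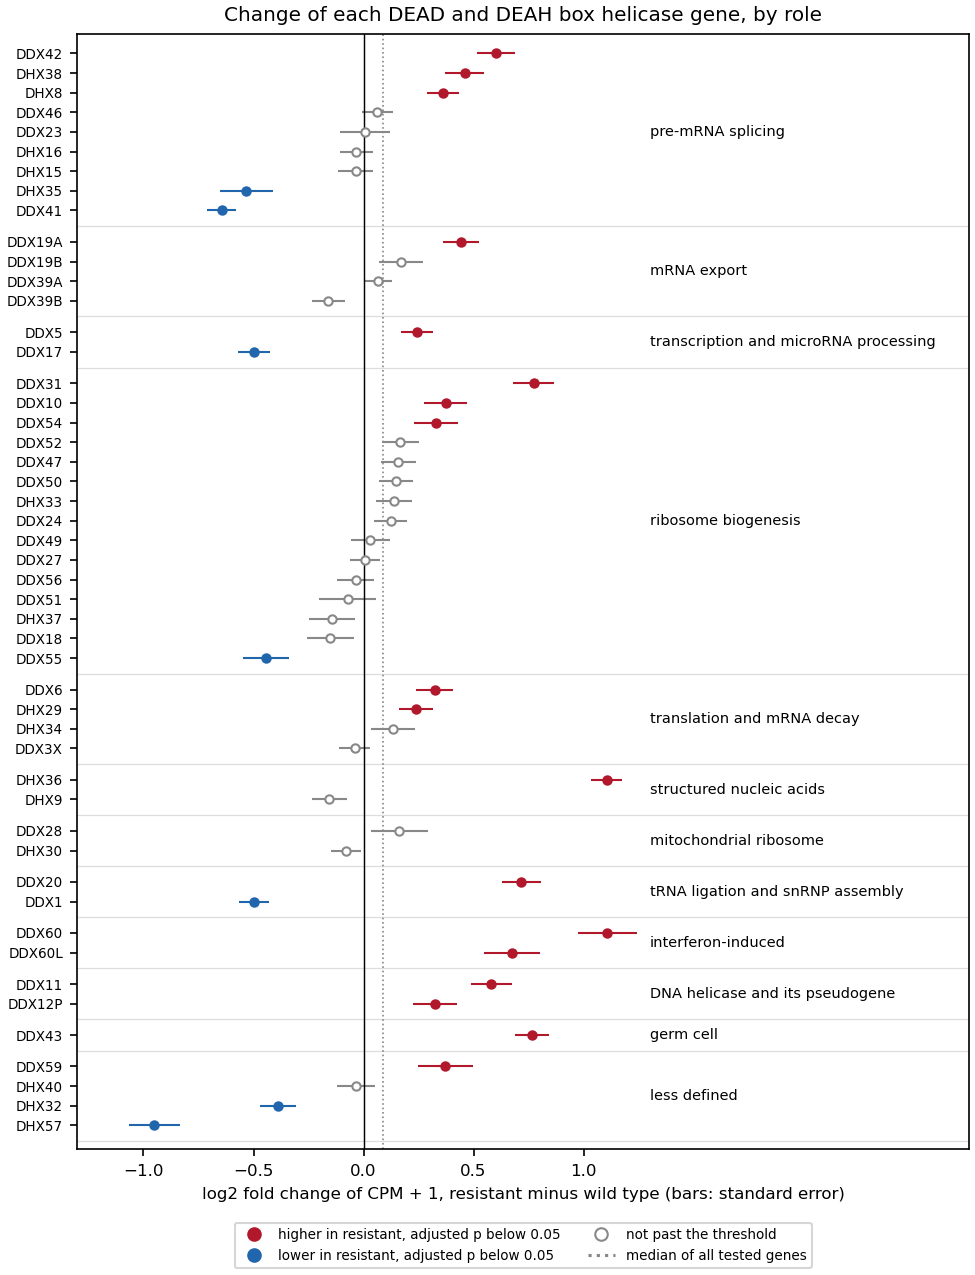
Log2 fold change of CPM + 1 (horizontal axis, resistant minus wild type) of the 49 helicase genes, grouped by role, with the standard error as bars, filled red or blue where the test was passed and open where it was not. On this scale the largest rises were 1.11 (DDX60) and 1.10 (DHX36) and the largest fall was -0.95 (DHX57), and most other members lay within 0.5 of 0.

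The samples held between 17800730 and 21189224 reads in the listed genes, and a member had between 57 and 5998 reads in a sample. The samples of each pair differed, with a chi-square per degree of freedom of 5.21 for the resistant and 13.9 for the wild type pair on reads estimated from the CPM, so neither pair was treated as 1 library deposited more than once. Of 17 urothelial markers 4 had values here: KRT18 read 90.5 and 85.5 CPM in resistant against 306 and 309 CPM in wild type samples, KRT8 read 43.5 and 43.2 CPM in resistant against 95.3 and 87.5 CPM in wild type samples, KRT7 read 10.1 and 10.0 CPM in resistant against 5.32 and 5.56 CPM in wild type samples, and TP63 was at or near 0, while uroplakins, GATA3 and the remaining markers were not analysed here. Of the other cell types, only CD68 of the leukocyte markers had more than 1 CPM, at 28.0 and 29.9 CPM in resistant and 71.5 and 52.2 CPM in wild type samples. The 5 proliferation markers summed to 1111 and 1072 CPM in resistant and 743 and 689 CPM in wild type samples, and their part in the helicase results was not tested. In bulk samples fewer cells of a kind and less RNA per cell cannot be told apart.

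DDX60 and DDX60L, nearby interferon-induced genes on chromosome 4 whose products belong to the antiviral response, both rose in resistant cells. DDX60 (ENSG00000137628.17) read 8.92 and 7.86 CPM in resistant samples, against 3.13 and 3.58 CPM in wild type samples. The groups were apart, and the level was 2.50 times the wild type level. This is a log2 fold change of 1.11 ± 0.13 (SE; limma, adjusted p = 0.000243). With a pseudocount of 5 in place of 1 the change of DDX60 was 0.68, below DHX36 at 1.04 and DDX43 at 0.69. DDX60L (ENSG00000181381.13) read 10.5 and 10.9 CPM in resistant samples, against 6.96 and 5.78 CPM in wild type samples. Again the groups did not overlap, at 1.69 times the wild type level (log2 fold change 0.68 ± 0.13 (SE), adjusted p = 0.00240). DDX60 and DDX60L were among the least abundant members in both groups. The outermost start of DDX60L in GENCODE 29 lies inside PALLD on the opposite strand, which read 34.6 CPM in resistant and 31.6 CPM in wild type cells and did not pass the test.

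The promoters of these genes are shown because interferon acts through a known element, whose core is GAAA, any 2 bases, then GAAA, in the promoters of the genes it induces. The sequences are RefSeq promoters of build GRCh38.p14, from 250 bases before to 50 bases after the gene start, and capitals mark each match to that core on either strand. The RefSeq start of DDX60L is not its outermost GENCODE start and lies outside PALLD.
DDX60 promoter, chr4:168318703-168319002, minus strand: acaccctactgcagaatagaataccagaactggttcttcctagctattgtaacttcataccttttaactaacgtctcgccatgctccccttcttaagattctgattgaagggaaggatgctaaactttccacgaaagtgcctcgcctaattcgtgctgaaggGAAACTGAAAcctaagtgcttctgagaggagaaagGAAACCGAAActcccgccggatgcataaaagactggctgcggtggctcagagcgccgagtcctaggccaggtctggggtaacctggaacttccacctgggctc
DDX60L promoter, chr4:168480443-168480742, minus strand: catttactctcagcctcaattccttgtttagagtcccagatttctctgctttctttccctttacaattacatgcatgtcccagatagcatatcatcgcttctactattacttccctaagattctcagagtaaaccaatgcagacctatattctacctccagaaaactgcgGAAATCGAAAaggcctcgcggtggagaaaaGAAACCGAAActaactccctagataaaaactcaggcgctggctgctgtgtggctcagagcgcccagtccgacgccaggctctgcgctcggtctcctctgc
Each promoter held 2 matches, starting at -88 and -53 from the start in DDX60 and at -80 and -50 in DDX60L, and the match nearer the start had the same 10 letters in both. Of 44 members with a promoter in the RefSeq table, the other with a match was DHX15, at -215, and the core occurred in 3.57% of all 35116 promoters. DHX15 read 110 and 109 CPM in resistant against 120 and 105 CPM in wild type samples and did not pass the test. Of 338 tested genes with the core in a promoter, 44.1% were higher in resistant cells, against 35.7% of tested genes whose promoter lacked it. The other motifs searched, given below, had a lean in the same direction, so it is not particular to this core. A match describes the letters only and does not show that a factor binds.

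Among helicases that act on structured nucleic acids, DHX36 rose and DHX9 did not pass the test. DHX36 unwinds G-quadruplexes, four-stranded structures of guanine-rich RNA and DNA, and DHX9 unwinds double-stranded RNA and other structures in the nucleus. DHX36 (ENSG00000174953.14) read 91.9 and 92.5 CPM in resistant samples, against 43.5 and 41.2 CPM in wild type samples. The replicates lay close together and the groups far apart. DHX36 was 2.18 times the wild type level, with a log2 fold change of 1.10 ± 0.07 (SE; limma, adjusted p = 1.12e-05), the smallest adjusted p of any member. By level it was the 9th helicase gene in resistant cells and the 23rd in wild type cells. DHX9 read 64.0 and 67.2 CPM in resistant samples, against 69.2 and 77.4 CPM in wild type samples. Its log2 fold change of -0.16 ± 0.08 did not pass (adjusted p = 0.131), but DHX9 was called lower when wild type replicate 1 was left out (adjusted p = 0.0235), with median-ratio scaling (0.0340) and with quantile normalization (0.0280).

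The promoter of DHX36 is shown as that of the most firmly changed member. Capitals mark the palindrome TGACGTCA, known as the cyclic AMP response element.
DHX36 promoter, chr3:154324438-154324737, minus strand: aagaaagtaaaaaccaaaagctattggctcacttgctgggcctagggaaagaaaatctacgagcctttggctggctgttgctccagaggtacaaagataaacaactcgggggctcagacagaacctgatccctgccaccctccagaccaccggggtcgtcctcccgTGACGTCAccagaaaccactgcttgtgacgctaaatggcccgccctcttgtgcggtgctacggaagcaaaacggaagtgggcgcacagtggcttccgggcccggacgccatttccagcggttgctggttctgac
The match starts at -84. The element was also found in the promoters of DDX10, DDX19A, DDX28 and DDX51, so in 5 of 44 members, and in 1.85% of all promoters and 4.18% of tested genes with a promoter in the table. DDX10 and DDX19A were higher in resistant cells, while DDX28 and DDX51 did not pass the test. Of all tested genes with this element 41.1% were higher, against 35.8% of those whose promoter lacked it. The ETS family motif CCGGAAGT occurred in 11 of 44 members, or 25.0%, against 11.2% of tested genes with a promoter and 4.14% of all promoters. Of these 11, DDX11, DDX5 and DHX8 were higher and none was lower, where 33.5% of all tested genes were higher and 21.6% lower. With quantile normalization DDX39B, DHX30 and DHX37 of these 11 were called lower. Of all tested genes with the ETS motif 39.5% were higher, against 35.6% of those whose promoter lacked it. The motifs were searched on both strands, and no member held more than 1 of the 3.

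Splicing helicases were called at the rate of all genes. Of 9 members, 3 were higher, 2 lower and 4 did not pass, so 33.3% were higher and 22.2% lower, against 33.5% and 21.6% of all tested genes, and the median log2 fold change was 0.01. DDX42, which associates with the SF3b complex that recognises the branch site, read 62.4 and 61.3 CPM in resistant samples, against 43.2 and 37.7 CPM in wild type samples (log2 fold change 0.60 ± 0.09 (SE), adjusted p = 0.000564). DHX38, the human counterpart of yeast Prp16 that remodels the spliceosome between its catalytic steps, read 38.6 and 37.6 CPM in resistant against 29.3 and 25.8 CPM in wild type samples (log2 fold change 0.46 ± 0.09, adjusted p = 0.00305). DHX8, the counterpart of yeast Prp22 that releases spliced mRNA, read 66.7 and 63.2 CPM in resistant against 50.9 and 49.6 CPM in wild type samples (0.36 ± 0.07, adjusted p = 0.00335, and 0.24 with quantile normalization). No group of these genes overlapped the other, and DHX8 lost its call without resistant replicate 1 (adjusted p = 0.0588). DDX42 and DHX38 start inside CCDC47 and TXNL4B on the opposite strand, which were higher as well, with log2 fold changes of 0.21 and 0.65.

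DDX41 and DHX35 were the splicing helicases that fell. DDX41 acts on the spliceosome and has been described as a sensor of cytosolic DNA. DDX41 (ENSG00000183258.12) read 75.8 and 75.1 CPM in resistant samples, against 119.5 and 117.3 CPM in wild type samples. Its replicates nearly coincided within each group. The wild type level was 1.57 times the resistant level, with a log2 fold change of -0.64 ± 0.07 (SE; limma, adjusted p = 0.000101). DHX35, a component of the catalytically active spliceosome, read 7.13 and 6.46 CPM in resistant samples, against 9.81 and 10.7 CPM in wild type samples. Its log2 fold change was -0.53 ± 0.12 (adjusted p = 0.00581, and 0.0579 without resistant replicate 2), and it shares all its values with a row for a transcript inside it, AL023803.3. The other splicing helicases, DDX46, DDX23, DHX16 and DHX15, did not pass the test. They lay between -0.04 and 0.06 on the log2 scale with standard errors of 0.07 to 0.11, and their groups overlapped.

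The related genes DDX5 and DDX17 moved in opposite directions. Both encode abundant nuclear helicases that act as transcription cofactors and in microRNA processing. DDX5 (ENSG00000108654.15), the most abundant member in both groups, read 283 and 289 CPM in resistant samples, against 254 and 229 CPM in wild type samples. DDX17 (ENSG00000100201.22) read 127 and 120 CPM in resistant samples, against 183 and 167 CPM in wild type samples. Neither gene's groups overlapped, and DDX17 ranked 5th by level among the members in resistant cells, against 3rd in wild type cells. The log2 fold change was 0.24 ± 0.07 for DDX5 (SE; limma, adjusted p = 0.0199) and -0.50 ± 0.07 for DDX17 (adjusted p = 0.000622). The call of DDX5 ended without resistant replicate 1 (adjusted p = 0.127), without resistant replicate 2 (0.165), with median-ratio scaling (0.103) and without the variance trend (0.0693). DDX5 starts inside CEP95 on the opposite strand, which was higher too, at 13.1 CPM in resistant and 9.42 CPM in wild type cells. The 3′ end of DDX17 overlaps KDELR3 on the opposite strand, and KDELR3 read 7.27 CPM in resistant and 21.8 CPM in wild type cells.

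The ratio of related genes within a sample is not changed by multiplying all values of the sample by 1 factor. DDX5 was 2.23 and 2.40 times DDX17 in resistant samples, against 1.39 and 1.37 times in wild type samples. DHX29, which helps ribosomes initiate on structured leaders, was 8.15 and 7.54 times DHX57 in resistant samples, against 3.09 and 3.18 times in wild type samples. DDX60 was 0.848 and 0.718 times DDX60L in resistant samples, against 0.450 and 0.619 times in wild type samples. DDX39B was 1.15 and 1.14 times DDX39A in resistant samples, against 1.40 and 1.28 times in wild type samples. Resistant and wild type samples did not overlap in these ratios, nor in DDX19A to DDX19B or DDX11 to DDX12P, and they did in DHX9 to DHX30. Of these 7 ratios, 6 reached p = 0.333 in an exact two-sided permutation test, which is the smallest p that 2 samples against 2 can give (adjusted p = 0.389 over the 7), so no difference of a ratio could be called.

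**Figure D2:**
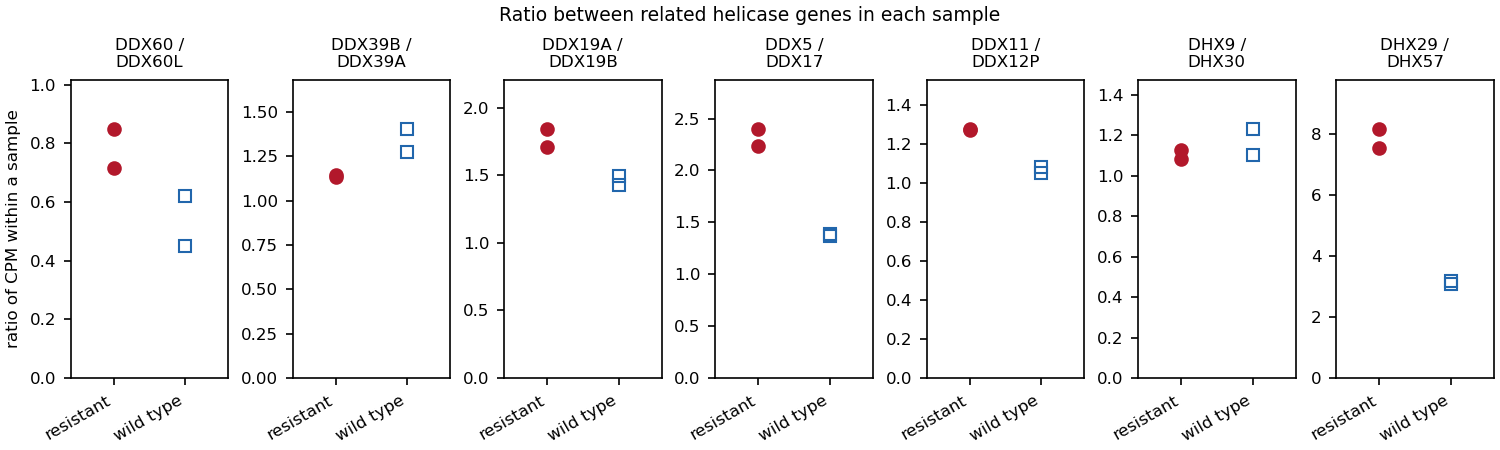
Ratio of the CPM of related helicase genes within each sample (vertical axes, linear from 0), with the 2 resistant samples as filled circles and the 2 wild type samples as open squares. DDX5 to DDX17 was 2.23 and 2.40 in resistant and 1.39 and 1.37 in wild type samples, and of the 7 ratios the groups overlapped only in DHX9 to DHX30.

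Among the mRNA export helicases 1 of 4 passed the test, or 25%, against 55.2% of all tested genes. DDX19A and its close paralog DDX19B act at the cytoplasmic side of the nuclear pore, where they release export proteins from mRNA, and DDX39A and DDX39B load the export machinery in the nucleus. DDX19A read 48.9 and 49.2 CPM in resistant samples, against 37.6 and 34.1 CPM in wild type samples (log2 fold change 0.44 ± 0.08 (SE), adjusted p = 0.00217). DDX19B read 28.7 and 26.7 CPM in resistant samples, against 26.3 and 22.8 CPM in wild type samples. The groups lay apart in DDX19A and nearly met in DDX19B, where the change of 0.17 ± 0.10 did not pass (adjusted p = 0.177, and 0.0431 without wild type replicate 1). DDX19B shares all its values with AC012184.2, a row on the same strand that also spans the start of DDX19A. Of the 27-base words in the first 100 bases of DDX19A transcripts, 0.537% occurred in DDX19B transcripts, although 10.8% of all its words did.

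DDX39A and DDX39B were among the most abundant members. DDX39A read 142 and 136 CPM in resistant samples, against 134 and 132 CPM in wild type samples (log2 fold change 0.07 ± 0.07, adjusted p = 0.415). DDX39B read 163 and 154 CPM in resistant samples, against 187 and 168 CPM in wild type samples. Neither gene's groups overlapped, but the gaps were small beside the spread. The change of DDX39B was -0.16 ± 0.08 (adjusted p = 0.103) and was called lower when wild type replicate 2 was left out (0.0150), with median-ratio scaling (0.0133) and with quantile normalization (0.0153). The row of the small nucleolar RNA SNORD84, which lies inside DDX39B, nearly repeated its values with 155 CPM in resistant and 175 CPM in wild type cells.

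Ribosome biogenesis helicases were the largest group, and most of them did not pass the test. Of 15 members 3 were higher, 1 was lower and 11 did not pass, so 26.7% were called, against 55.2% of all tested genes. DDX31, a nucleolar helicase of the large subunit pathway, rose most. DDX31 (ENSG00000125485.17) read 27.9 and 30.2 CPM in resistant samples, against 17.0 and 16.2 CPM in wild type samples. The groups were well apart, at 1.75 times the wild type level (log2 fold change 0.77 ± 0.09 (SE), adjusted p = 0.000235). DDX31 starts inside GTF3C4 on the opposite strand, which was higher too, at 44.2 CPM in resistant and 18.5 CPM in wild type cells.

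The calls of smaller changes in this group were lost when single samples were left out. DDX10, whose yeast counterpart Dbp4 releases a guide RNA from pre-ribosomes, read 17.6 CPM in both resistant samples, against 13.8 and 13.0 CPM in wild type samples (adjusted p = 0.0120). DDX54 read 55.1 and 62.0 CPM in resistant samples, against 50.3 and 42.6 CPM in wild type samples (adjusted p = 0.0225). DDX55, whose yeast counterpart Spb4 acts on the large subunit, fell and read 19.3 and 20.6 CPM in resistant samples, against 29.8 and 25.3 CPM in wild type samples (log2 fold change -0.44 ± 0.10 (SE), adjusted p = 0.00710). None of these groups overlapped. Without resistant replicate 1 the adjusted p was 0.0811 for DDX10, 0.0502 for DDX54 and 0.0688 for DDX55, and without resistant replicate 2 it was 0.0831 for DDX10 and 0.193 for DDX54. The log2 fold changes were 0.37 for DDX10 in both fits, 0.41 and 0.25 for DDX54, and -0.40 for DDX55 without resistant replicate 1. With quantile normalization the adjusted p was 0.0586 for DDX10, at a log2 fold change of 0.24, and 0.0959 for DDX54, at 0.21. DDX54 also lost its call without wild type replicate 2 (0.0802), with median-ratio scaling (0.0517) and without the trend (0.0572).

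The remaining ribosome biogenesis helicases lay between -0.15 and 0.17 on the log2 scale. DDX50, the paralog of DDX21, read 62.9 and 69.1 CPM in resistant samples, against 58.2 and 60.5 CPM in wild type samples (adjusted p = 0.133). DDX27 read 97.8 and 100.4 CPM in resistant samples, against 101.0 and 96.3 CPM in wild type samples, and DDX24 read 94.3 and 85.3 CPM in resistant samples, against 83.5 and 81.2 CPM in wild type samples. DDX18 read 57.2 and 55.7 CPM in resistant samples, against 70.5 and 55.9 CPM in wild type samples, and of the wild type samples only replicate 1 lay above both resistant samples. DDX18 was called lower when wild type replicate 2 was left out (adjusted p = 0.00761), as did DHX37 (0.0371), and DDX47 passed as higher without wild type replicate 1 (0.0473). With median-ratio scaling DDX18 passed as lower (0.0493), and with quantile normalization DDX18 (0.0406) and DHX37 (0.0418) did.

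In translation and mRNA decay 2 of 4 members rose and 0 fell, so 50% were called, against 55.2% of all tested genes. DDX6, a P-body helicase that represses translation and aids decapping, read 155 and 146 CPM in resistant samples, against 129 and 112 CPM in wild type samples. DHX29 read 42.3 and 40.6 CPM in resistant samples, against 34.4 and 35.5 CPM in wild type samples. The groups did not overlap, with log2 fold changes of 0.32 ± 0.08 for DDX6 (SE; limma, adjusted p = 0.0109) and 0.24 ± 0.08 for DHX29 (adjusted p = 0.0289). The call of DDX6 ended without resistant replicate 1 (adjusted p = 0.118) and without resistant replicate 2 (0.0564). That of DHX29 ended there too (0.200 and 0.117), with median-ratio scaling (0.152), with quantile normalization (0.291) and without the trend (0.0540). DDX3X, which promotes translation of mRNAs with structured leaders, read 78.6 and 82.4 CPM in resistant samples, against 80.0 and 85.7 CPM in wild type samples, and its groups overlapped (log2 fold change -0.04 ± 0.07). DHX34, a factor of nonsense-mediated decay, read 22.6 and 22.4 CPM in resistant samples, against 21.9 and 19.0 CPM in wild type samples (adjusted p = 0.286).

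DDX20 and DDX1, which belong to RNA-protein assembly and RNA ligation, moved apart. DDX20 is Gemin3, a subunit of the SMN complex that builds spliceosomal snRNPs. DDX20 (ENSG00000064703.12) read 51.2 and 53.0 CPM in resistant samples, against 29.1 and 33.6 CPM in wild type samples. DDX1 is a subunit of the tRNA ligase complex. DDX1 (ENSG00000079785.15) read 86.4 and 92.1 CPM in resistant samples, against 125.7 and 126.9 CPM in wild type samples. The groups did not overlap in either gene. DDX20 was 1.66 times the wild type level (log2 fold change 0.72 ± 0.09 (SE), adjusted p = 0.000302), and the wild type level of DDX1 was 1.41 times its resistant level (log2 fold change -0.50 ± 0.07, adjusted p = 0.000463).

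DDX43, a germ cell helicase known as a cancer-testis antigen, was well expressed in these cells. DDX43 (ENSG00000080007.8) read 49.8 and 50.1 CPM in resistant samples, against 29.6 and 28.4 CPM in wild type samples. It rose 1.72 times with no overlap between the groups (log2 fold change 0.76 ± 0.08 (SE), adjusted p = 9.89e-05). DDX43 starts inside OOEP on the opposite strand, which read 4.58 CPM in resistant and 3.57 CPM in wild type cells and did not pass the test. The 3′ end of DDX43 overlaps CGAS, the cytosolic DNA sensor, on the opposite strand, and CGAS was higher as well, at 41.6 CPM in resistant and 22.2 CPM in wild type cells.

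DDX11, a DNA helicase of sister chromatid cohesion, and its pseudogene DDX12P both rose. DDX11 read 48.2 and 47.9 CPM in resistant samples, against 34.4 and 29.4 CPM in wild type samples (log2 fold change 0.58 ± 0.09 (SE), adjusted p = 0.00103). DDX12P read 37.8 and 37.5 CPM in resistant samples, against 32.7 and 27.2 CPM in wild type samples (0.33 ± 0.10, adjusted p = 0.0234). Both genes were nearly identical between the resistant samples and more spread between the wild type samples. The call of DDX12P ended without resistant replicate 1 (adjusted p = 0.124), without resistant replicate 2 (0.117), without wild type replicate 2 (0.0683), with median-ratio scaling (0.0514) and with quantile normalization (0.101). Of the 27-base words in the first 100 bases of transcripts, 26.5% of those of DDX11 occurred in DDX12P and 21.6% of those of DDX12P in DDX11, so reads of the copies may not have been separated. DDX11 also overlaps DDX11-AS1 on the opposite strand, at 3.52 CPM in resistant and 2.58 CPM in wild type cells.

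Of 4 members with less defined roles, DHX57 fell most. DHX57 (ENSG00000163214.21) read 5.19 and 5.39 CPM in resistant samples, against 11.1 and 11.2 CPM in wild type samples. Its replicates nearly coincided, and the wild type level was 2.11 times the resistant level (log2 fold change -0.95 ± 0.11 (SE), adjusted p = 0.000240). DHX57 was the lowest member of all in resistant cells. DHX32 read 27.7 and 28.0 CPM in resistant samples, against 35.5 and 38.0 CPM in wild type samples (log2 fold change -0.39 ± 0.08, adjusted p = 0.00445). DDX59 read 9.53 and 8.03 CPM in resistant samples, against 6.63 and 6.44 CPM in wild type samples, without overlap (adjusted p = 0.0353). The call of DDX59 ended in each fit with a sample left out, with adjusted p-values of 0.246 and 0.0545 without resistant replicate 1 and 2 and of 0.0595 and 0.0834 without wild type replicate 1 and 2, as it did with median-ratio scaling (0.0724) and quantile normalization (0.0536). DHX40 read 28.5 and 28.8 CPM in resistant samples, against 28.2 and 30.6 CPM in wild type samples.

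Neither helicase of the mitochondrial ribosome passed the test. DHX30 read 59.1 and 59.8 CPM in resistant samples, against 62.9 and 63.0 CPM in wild type samples, a narrow gap without overlap (log2 fold change -0.08 ± 0.07, adjusted p = 0.345, and 0.0421 with quantile normalization). DDX28 read 13.7 and 14.2 CPM in resistant samples, against 13.98 and 10.9 CPM in wild type samples, with overlap (0.16 ± 0.13, adjusted p = 0.315, and 0.0423 without wild type replicate 1).

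**Figure D3:**
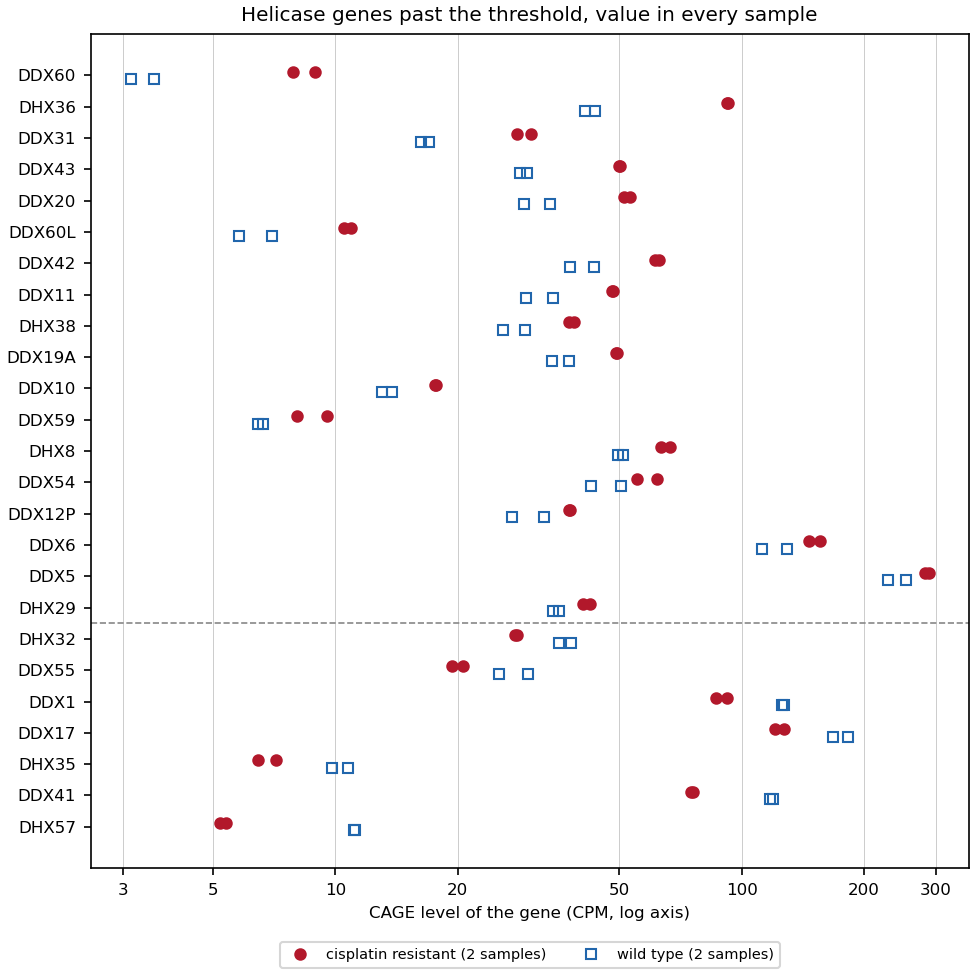
Level in CPM (log axis) of the 25 helicase genes past the threshold in the 2 resistant samples (filled circles) and the 2 wild type samples (open squares), ordered by fold change, with the 18 higher genes above the dashed line and the 7 lower genes below it. In none of the 25 genes did the groups overlap, but the test that picked these genes used the same values. The groups did not overlap in 73.5% of all 49 members and in 78.5% of all tested genes. Levels ran from 3.13 CPM for DDX60 in wild type to 289 CPM for DDX5 in resistant cells.

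Helicase genes past the threshold tended to lie among genes that had moved the same way. For each gene the median log2 fold change of the 10 nearest tested genes on each side was set against 0.09, the median of all tested genes. It lay above that value for 16 of the 18 higher members and below it for 6 of the 7 lower members. Over all tested genes the shares were 76.2% of higher genes and 79.1% of lower genes, so the members were close to the background. Around DDX31 on chromosome 9, 17 of 20 neighbours were higher and 0 lower, with a median of 0.64, near its own 0.77. Around DDX55 on chromosome 12, 13 of 20 neighbours were lower, with a median of -0.41, near its own -0.44. DDX42 (15 of 20 neighbours higher), DHX38 (14 of 20) and DDX43 (13 of 20) lay among higher genes, with medians of 0.35, 0.47 and 0.42. The part of a gene's region in its change was not tested.

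Other members stood apart from their neighbours. The neighbours of DDX60 and DDX60L had medians of 0.04 and -0.02, and 6 of 20 were higher around each gene. DHX36 at 1.10 lay above a median of 0.34, although 10 of its 20 neighbours were higher and 1 lower. DHX57 at -0.95 lay below a median of -0.09, with 2 of 20 neighbours higher and 7 lower. The neighbours of DDX41 had a median of -0.10, with 5 higher and 7 lower of 20. DHX32 lay at -0.39 among neighbours with a median of 0.20. DDX51, which did not pass at -0.07, lay among neighbours with a median of -0.41.

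**Figure D4:**
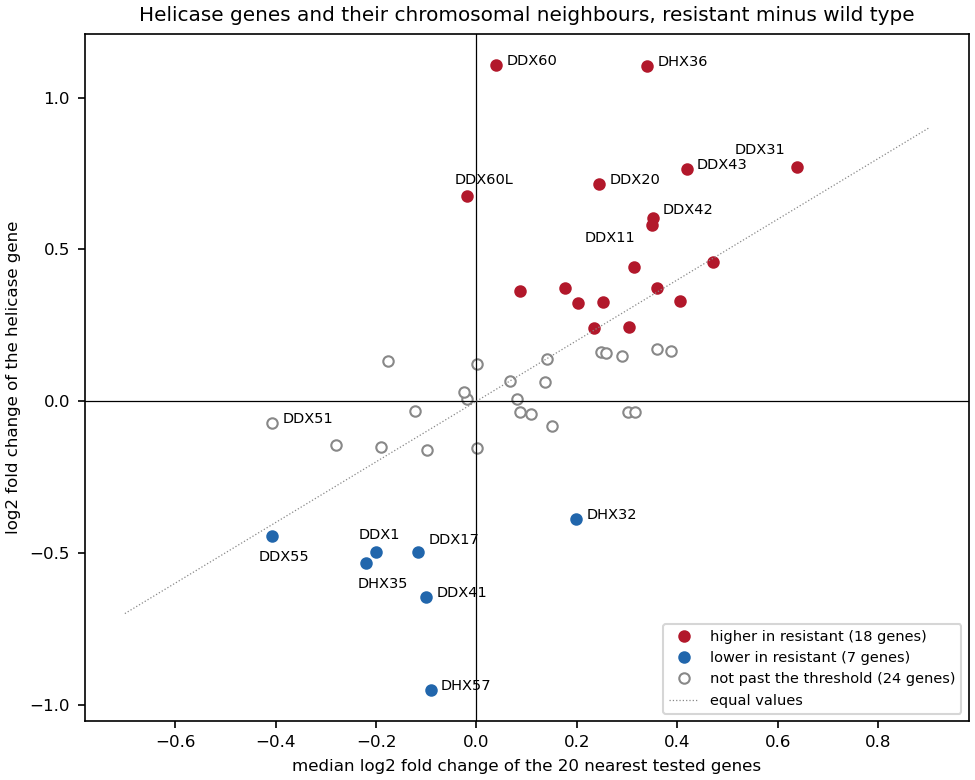
Log2 fold change (resistant minus wild type) of each of the 49 helicase genes on the vertical axis against the median log2 fold change of its 20 nearest tested genes on the horizontal axis, coloured by the test of the helicase gene, with the dotted line at equal values. DDX31 (0.77 against 0.64) and DDX55 (-0.44 against -0.41) lie near the line, while DDX60 (1.11 against 0.04) and DHX57 (-0.95 against -0.09) lie far from it.

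Other RNA helicases outside the DDX and DHX names changed at a similar rate. Of 17 tested, 8 were higher and 2 lower, or 58.8% against 55.2% of all genes, with a median log2 fold change of 0.29. Fewer of these helicases were called when either resistant sample was left out, and fewer of all tested genes were as well. HELZ2, a nuclear helicase and transcription coactivator, read 33.5 and 34.0 CPM in resistant samples, against 16.6 and 16.2 CPM in wild type samples (log2 fold change 0.99 ± 0.09 (SE), adjusted p = 4.53e-05). DICER1, the nuclease that releases microRNAs, read 40.3 and 39.5 CPM in resistant against 26.5 and 24.3 CPM in wild type samples. EIF4A3, the DEAD box core of the exon junction complex, read 66.4 and 64.5 CPM in resistant against 45.5 and 45.3 CPM in wild type samples. None of these groups overlapped.

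Partners of the helicases moved in both directions. Of 11 tested DDX6 partners in decapping and repression, 4 were higher and 0 lower, or 36.4% against 55.2% of all tested genes, and with either scaling alternative 1 was lower. They were the decapping factors DCP1B, with 24.4 and 26.2 CPM in resistant and 16.2 and 14.5 CPM in wild type samples, DCP1A, the scaffold EDC4 and the eIF4E transporter EIF4ENIF1. Of 16 export partners, 4 were higher and 4 lower, or 50% against 55.2% of all tested genes. The TREX subunits THOC2 and THOC6 fell, THOC2 to 34.4 and 33.6 CPM in resistant samples, against 55.8 and 57.9 CPM in wild type samples. The nuclear pore protein NUP214, a docking site of DDX19, rose and read 51.6 and 51.5 CPM in resistant samples, against 33.3 and 31.9 CPM in wild type samples, as did ZC3H11A.

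Of 20 tested G-patch proteins, a class that includes activators of DEAH helicases, 5 were higher and 2 lower, or 35.0% against 55.2% of all tested genes. Fewer G-patch genes were called when either resistant sample was left out, and fewer of all tested genes were as well. With either scaling alternative 3 were higher and 2 lower. CMTR1, a cap methyltransferase that binds DHX15, read 31.9 and 33.4 CPM in resistant samples, against 17.7 and 19.6 CPM in wild type samples (log2 fold change 0.78 ± 0.09 (SE), adjusted p = 0.000217). RBM5 and GPATCH2 were higher as well and NKRF was lower, and each lost its call without resistant replicate 1 (adjusted p = 0.0665, 0.120 and 0.0578). NKRF also lost it without resistant replicate 2 (0.0871) and GPATCH2 without wild type replicate 2 (0.0571).

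Of 13 tested partners of DDX1 and DDX20, 3 were higher and 6 lower, or 69.2% against 55.2% of all tested genes. Fewer of these partners were called when either resistant sample was left out, and fewer of all tested genes were as well. Without the variance trend 2 were lower. GEMIN8, which sits with DDX20 in the SMN complex, fell and read 4.62 and 4.38 CPM in resistant samples, against 10.1 and 8.92 CPM in wild type samples (log2 fold change -0.93 ± 0.12 (SE), adjusted p = 0.000419, and -0.61 with a pseudocount of 5). ZBTB8OS, the archease that serves the tRNA ligase, rose and read 179 and 175 CPM in resistant samples, against 137 and 132 CPM in wild type samples. STRAP was higher, at 0.31 on the log2 scale and 0.21 with quantile normalization, and GEMIN2 lower, and both lost the call without resistant replicate 1 (adjusted p = 0.0827 and 0.0966) and without resistant replicate 2 (0.0557 and 0.0707).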

How the data were processed

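CAGE libraries of 2 cisplatin-resistant and 2 wild type UM-UC-3 samples were made by cap-trapping of random-primed cDNA, per the labels' protocols. The authors deposited CPM values per gene, with each column scaled to the same total over the listed genes and rounded to 2 decimals. Per the submitters' processing notes, BWA 0.5.9 was used in a role not stated, and hg19 and mm9 are listed as builds. The counting tool, annotation and use of strand are not stated in these sources, so overlapping genes may not have been separated.

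Genes averaging 1 CPM or more (12587, all 49 members among them) were compared as log2(CPM + 1) with limma 3.58.1 in R 4.3.3, with a variance trend and Benjamini-Hochberg adjustment over all tested genes. Fold changes on this scale understate the change of low genes. Values after ± are standard errors of that model where marked SE or where they follow a log2 fold change, from 2 residual degrees of freedom moderated across genes. A CAGE read is a 5′ end, so CPM levels are set side by side between genes without correction for length. In each column 100% of the values below 1 CPM were whole multiples of 1 step within 0.005 CPM, and the reads per sample were estimated from that step. No count test was run. Positions and overlaps come from GENCODE 29 by gene ID (49 of 49 matched) and no coordinates were taken from it, since the build of the files is not settled.

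The members, roles, partner lists, motifs and the neighbour comparison were chosen with earlier results of these data known. Fold changes with errors are given for the 10 largest rises and all 7 falls past the threshold, the 5 most abundant members and pairs of related genes. Outside this rule they are given for DHX8 and DDX28, and as ranges for DDX46, DDX23, DHX16 and DHX15. Partners named are at most 4 called genes a list, those of smallest adjusted p, and EIF4A1 is named beside this rule. 1 gene that this rule selects is not reported here. The alternatives were other pseudocounts, filters, scalings and variance models, a replicate block, and leaving out each sample.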

Additional observations from a re-analysis of the deposited data

How the results depend on the processing

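With median-ratio scaling the median log2 fold change of the members was 0.0433, and with quantile normalization it was 0.00806 and 12 members were called lower. The median of all tested genes was 0.0012 with median-ratio scaling and 0.013 with quantile normalization. With 1 sample left out, the members called higher ranged from 10 to 20 and those called lower from 6 to 10, the genes called higher from 2677 to 4394 and those called lower from 1719 to 2784, and the median of the members from 0.10 to 0.12. No member turned its direction past the threshold. Of the 25 calls, 15 held in all 13 alternatives. Pseudocounts of 0.25 and 5, both filters and the robust trend kept all 25, and fitting without the trend kept 22. With the replicate number as a block 18 members were higher and 7 lower, as without it, and the block changed no call of a member. Deviations of same-numbered samples from their group means correlated at -0.08, so the numbers are not taken to pair the samples. The wild type pair varied more than the resistant pair, and with 2 samples a group only a large difference relative to this spread can be called.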
